A study of Mus musculus with 9 samples.

Results

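The genes described here are 9 genes known for their response to nerve injury and for axon regrowth: Atf3, Jun, Sox11, Sprr1a, Ecel1, Gap43, Gadd45a, Csf1 and Cckbr. They were found by symbol among the 22609 genes counted in each library, and all 9 were among the 16091 genes that passed the filter on low counts. They were selected on measured values: the genes were listed after their levels in each library were known, and because DRG library 1 stood apart from the other DRG libraries. The RNA came from male C57 mice aged 8 to 12 weeks. All had been given paclitaxel, a chemotherapy agent that stabilises microtubules, as 2 intraperitoneal injections of 2 mg/kg given a day apart. They had been treated besides with a lymphotoxin-beta receptor (LTβR) antagonist, 15 µg into the hind paw and 15 µg intrathecally. The sample titles place the antagonist on days 1 and 4, while the series text has it follow the first paclitaxel dose and come again 1 day after the course. Tissue was taken 6 days after the last paclitaxel injection. The 3 tissues were dorsal root ganglia (DRG) of levels L3 to L5, the lumbar part of the spinal cord and skin punches of the hind paw, with 3 libraries each. All 9 libraries carried the same treatment, so the comparisons are between tissues and between libraries of a tissue. Control mice that got IgG, or no antagonist, were not analysed here. Whether the 3 libraries of each tissue stem from separate mice is not in the labels, and p-values therefore measure the spread between these samples, which may be technical.

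When the peripheral axon of a sensory neuron is damaged, a signal travels back to the cell body and switches on transcription factors of the AP-1, ATF and SoxC families. These factors in turn raise proteins of the growth cone and cytoskeleton, secreted signals and receptors, and the set as a whole is used as a marker of injured and regrowing neurons. Several members have other homes: Sprr1a is a cornified envelope protein of stressed skin cells, Jun and Atf3 are stress genes of most cell types, and Ecel1, Csf1 and Cckbr are made by cells of the intact central nervous system.

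Between 15537545 and 23229724 reads were assigned to genes per library, and 3 reads, taken as the detection floor, equal 0.134 to 0.185 CPM, a gene's reads relative to the assigned reads of its library. The tissue labels held against defining markers. The summed level of 9 sensory neuron markers ran from 2901 to 3452 CPM in DRG, against 22.3 to 24.9 CPM for spinal cord and 4.97 to 6.36 CPM for paw. The astrocyte markers summed to 3420 to 3701 CPM in spinal cord, and the keratinocyte markers to 36178 to 54551 CPM in paw. Skeletal muscle markers summed to 15832, 17568 and 21360 CPM in paw 1, 2 and 3, so paw values are not those of skin cells alone. Besides DRG 1, spinal cord library 3 stood apart for part of the set, and results that rest on either library are given with and without it.

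A subset of 4 injury genes was far higher in DRG 1 than in DRG 2 and 3. Sprr1a, a small proline-rich protein that promotes axon outgrowth, stood at 14.0 CPM in DRG 1, 0.965 CPM in DRG 2 and 3.07 CPM in DRG 3. DRG 1 held 313 reads of Sprr1a against 20 and 62, and its level was 6.93 times the mean of the other 2 libraries. Ecel1, an endopeptidase-like membrane protein of damaged neurons, stood at 10.2 CPM in DRG 1, 1.11 CPM in DRG 2 and 2.38 CPM in DRG 3, which is 5.84 times the mean of the others. Cckbr, the receptor for cholecystokinin and gastrin that appears in axotomised sensory neurons, stood at 3.08 CPM in DRG 1, 0.531 CPM in DRG 2 and 0.495 CPM in DRG 3. These values rest on 69, 11 and 10 reads, and the ratio to the mean of the others was 6.01. Atf3, the stress-induced transcription factor that marks axotomised neurons, stood at 42.6 CPM in DRG 1, 13.2 CPM in DRG 2 and 18.4 CPM in DRG 3, a ratio of 2.70. For all 4 genes DRG 1 was the high library. For Sprr1a and Ecel1, DRG 2 also lay at least 1 log2 unit below the lower of its partners, as 1.23% of all genes tested did.

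The other members did not show this gap. On the log2 CPM scale, computed with a prior count of 2, DRG 1 exceeded the mean of DRG 2 and 3 by 2.93 for Sprr1a, 2.57 for Ecel1, 2.37 for Cckbr and 1.44 for Atf3. The same difference was 0.39 for Sox11, 0.25 for Csf1, 0.21 for Gadd45a and 0.17 for Jun, and it was −0.04 for Gap43. A library was said to stand apart for a gene when it lay at least 1 log2 unit above the higher of its partners. DRG 1 did so for 4 of the 9 members, and for 0.367% of all 16091 genes tested. DRG 1 was the highest of the 3 DRG libraries for 8 of 9 members, against 28.1% of all genes tested. Ranked by this excess among all genes tested, Cckbr came at 1, Sprr1a at 2, Ecel1 at 3 and Atf3 at 20. Among the 10103 genes with a mean of at least 10 CPM in DRG, Atf3 ranked at 1. The gene after it was Itih2, a hyaluronan-binding serum protein chain, at 18.9, 9.17 and 7.33 CPM in DRG 1, 2 and 3. The next genes in that order were Lars2, Fn1, Thbs4, Slc6a13, Smoc2, Ntn1, Loxl2 and Ptgds. Since the members were listed with this gap known, these counts and ranks are a description and carry no test.

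**Figure D1:**
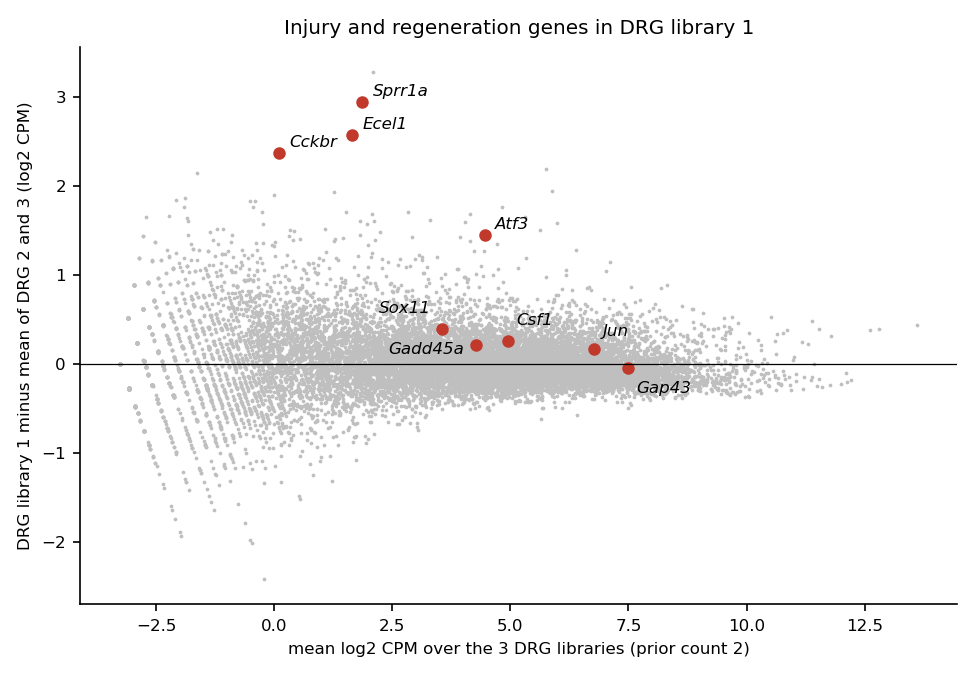
Each point is 1 tested gene, with its mean log2 CPM over the 3 DRG libraries on the x axis and DRG library 1 minus the mean of DRG 2 and 3 (log2 CPM, prior count of 2) on the y axis. The 9 injury genes are in red: Sprr1a, Ecel1, Cckbr and Atf3 lie between 1.44 and 2.93, above nearly all genes of like level, and Sox11, Csf1, Gadd45a, Jun and Gap43 lie within the main cloud.

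Other genes that nerve injury is known to raise varied in whether they followed the members in DRG 1. Of 27 tested injury effectors outside the members, 16 were highest in DRG 1 and 8 were lowest there. Over all genes tested, 28.1% were highest and 37.2% lowest in DRG 1. The effectors' median difference from DRG 2 and 3 was 0.31, against −0.02 over all genes tested. Of the effectors, 3 stood apart by the same step of 1 log2 unit: Gpr151, Nts and Crh. Gpr151, an orphan receptor of injured sensory neurons, stood at 4.56, 1.40 and 1.98 CPM in DRG 1, 2 and 3. Nts, the neuropeptide neurotensin, stood at 13.5, 6.52 and 5.35 CPM, and Crh, a neuropeptide precursor, had 4, 0 and 0 reads. The neuropeptide Gal, at 17.2, 12.1 and 10.6 CPM, and the axon adhesion protein Flrt3, at 31.5, 19.2 and 20.7 CPM, were also highest in DRG 1 but by less than the step. Among the effectors lowest in DRG 1 were Lifr, a cytokine receptor subunit, at 473, 538 and 544 CPM, and Hspb1, a small heat shock protein gene, at 39.0, 46.5 and 40.7 CPM. Gal, Flrt3, Gpr151 and Crh were named after their values were seen.

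The 14 other transcription factors of the injury response did not share the pattern as a group. DRG 1 was the highest library for 3 of them and the lowest for 5, against 28.1% and 37.2% of all genes tested. Their median difference was 0.01. Stat3, which carries cytokine signals to the nucleus, stood at 467, 516 and 510 CPM in DRG 1, 2 and 3. Klf7, a Krüppel-like factor of axon growth, stood at 26.6, 5.84 and 32.0 CPM, so that DRG 2 was the low library and DRG 1 was not the highest. Among 10 partners of Jun and Atf3 in AP-1 dimers, Fosl1 stood apart in DRG 1, at 0.313 CPM against 0.0483 and 0.0990, levels near the floor. None of the 10 DLK and JNK pathway genes was highest in DRG 1. Of 14 immediate early genes 6 were highest in DRG 1 and 3 were lowest, with a median difference of −0.04. Of 9 Schwann cell repair genes 2 were highest in DRG 1 and 5 were lowest, with a median difference of −0.14.

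Of 17 genes that nerve injury is known to lower in sensory neurons, none was highest in DRG 1 and 11 were lowest there, with a median difference of −0.24. Over all genes tested, 37.2% were lowest in DRG 1. Sensory neuron markers as such were lowest there for 7 of 9 genes, with a median of −0.28, and the part of this in the result was not tested. The pain peptide gene Calca stood at 783, 941 and 910 CPM in DRG 1, 2 and 3, Htr3a, a serotonin-gated channel subunit, at 146, 212 and 167 CPM, and Tmem233, a small membrane protein, at 135, 193 and 171 CPM. Scn10a, the sodium channel of nociceptors, lay in the middle at 1044 CPM, between 789 and 1303. The list of genes lowered by injury and that of sensory neuron markers share genes, Scn10a among them, so their counts are not independent. Calca and Htr3a were named after their values were seen.

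**Figure D2:**
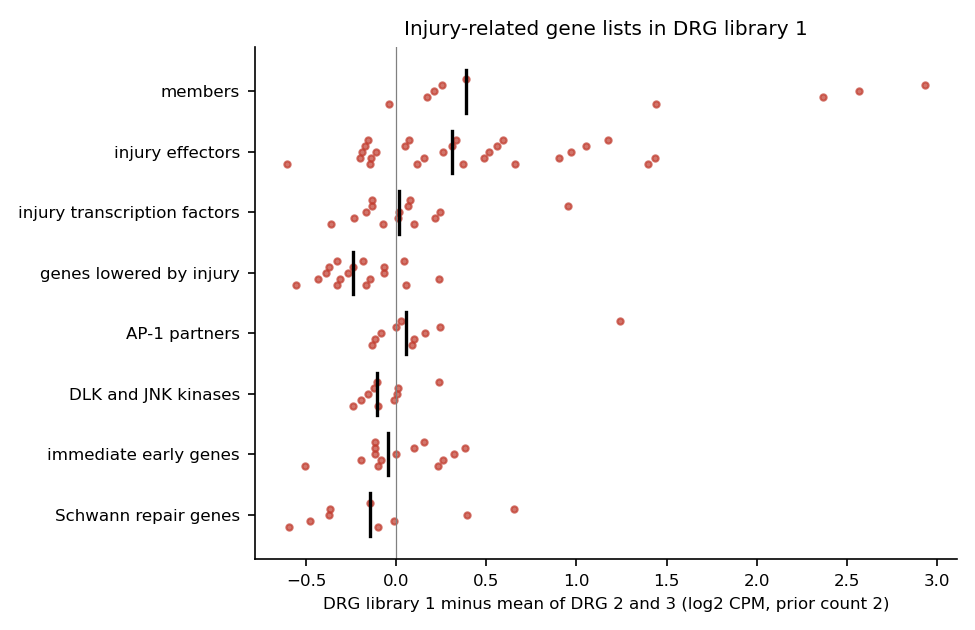
Each point is 1 gene and its place on the x axis is DRG library 1 minus the mean of DRG 2 and 3 (log2 CPM, prior count of 2), and the black bar is the median of each list. The members and the other injury effectors have medians of 0.39 and 0.31, while the genes lowered by injury have a median of −0.24 and the transcription factors one of 0.01.

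Markers of several cell types moved with DRG 1, and their part in the result was not tested. All 6 tested markers of myelinating Schwann cells were highest in DRG 1, against 28.1% of all genes tested. These markers summed to 28314 CPM in DRG 1, against 20453 and 21557 in DRG 2 and 3. All 8 macrophage markers were highest there too, at 153 CPM summed against 106 and 110, as were 6 of 7 fibroblast markers, at 3343 CPM against 2264 and 2275. The medians of these lists were 0.42, 0.56 and 0.53 on the log2 scale, and no marker of the 3 lists reached the step of 1. Keratinocytes also make Sprr1a, and their 8 markers summed to 21.5 CPM in DRG 1, between 15.3 in DRG 2 and 29.5 in DRG 3. Skeletal muscle markers summed to 728, 1084 and 103 CPM in DRG 1, 2 and 3. Their median difference between DRG 1 and the mean of the others was 1.67, 1 of the 8 was highest in DRG 1, and that gene, Myh1, stood apart there at 15.6, 6.52 and 3.42 CPM.

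Spinal cord library 3 stood apart for 1 member, Sprr1a. Sprr1a had 1 read in spinal cord 1, 1 read in spinal cord 2 and 49 reads in spinal cord 3, or 2.81 CPM in the last. The ratio of spinal cord 3 to the other 2 was 58.3, with a 95% counting interval of 15.3 to 495. Sprr1a ranked at 2 among the 16091 genes tested by its excess in this library, in which 2.04% of all genes stood apart. Atf3 stood at 2.90, 2.29 and 5.57 CPM in spinal cord 1, 2 and 3, which is 2.15 times the mean of the others but 0.92 log2 units above the higher one, under the step of 1. Ecel1 and Cckbr were lowest in spinal cord 3, at 37.1 and 13.0 CPM, the opposite of their place in DRG 1.

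Markers of peripheral nerve and its sheath moved with spinal cord 3 by more than they did in DRG 1, and their part in the result was not tested. Of 6 Schwann cell markers 5 stood apart in spinal cord 3, with a median difference of 1.55. Of 7 fibroblast markers 5 stood apart, with a median of 1.39, and of 9 sensory neuron markers 4 did, with a median of 1.24. The sensory neuron marker Avil was nonetheless at 2.41 CPM in spinal cord 3, which is 0.225% of its mean in DRG, whereas Sprr1a in spinal cord 3 was 46.8% of its mean in DRG. None of the 8 keratinocyte markers stood apart in spinal cord 3, and their median difference was −0.34, in a range from −0.72 to 1.05. Of these markers 3 were highest and 5 lowest in spinal cord 3, where 34.7% of all genes tested were highest.

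**Figure D3:**
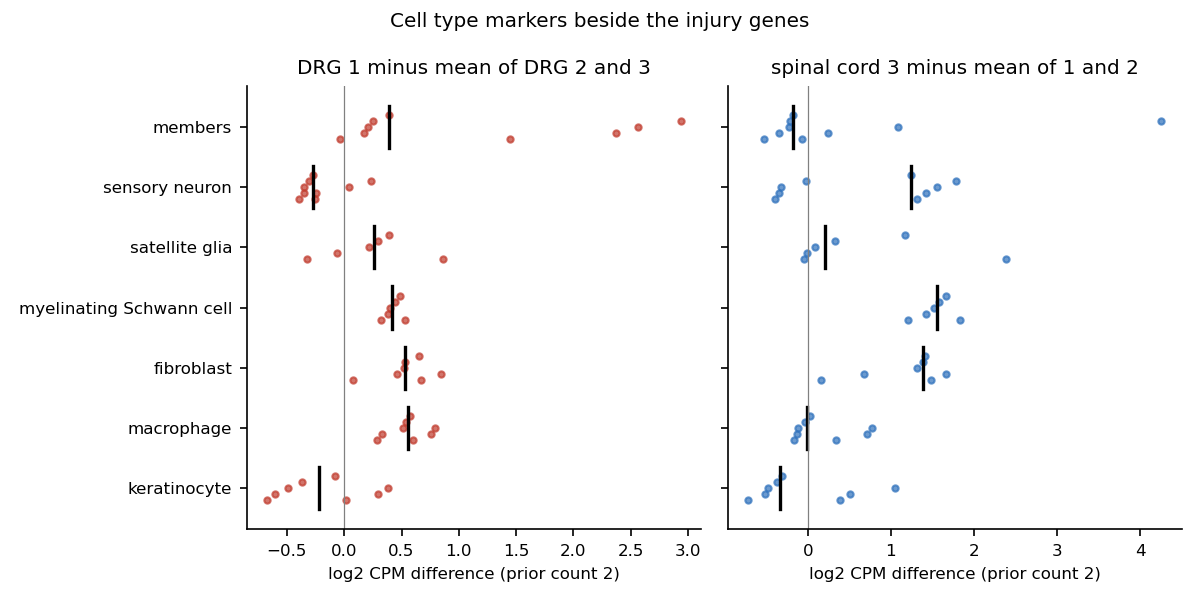
Each point is 1 gene, and its place on the x axis is DRG 1 minus the mean of DRG 2 and 3 on the left, or spinal cord 3 minus the mean of spinal cord 1 and 2 on the right (log2 CPM, prior count of 2), with black bars for the medians of the lists. Schwann cell, fibroblast and macrophage markers have medians of 0.42 to 0.56 in DRG 1, and Schwann cell and fibroblast markers have medians of 1.55 and 1.39 in spinal cord 3, where Sprr1a is the point at 4.25.

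Promoter sequences were read for the members that stood apart in DRG 1 and for Jun and Sox11, which did not, to show which AP-1, ATF and TATA letters lie near their starts. RefSeq (GRCm38.p6) gave a window of 300 bases, from 250 before the start to 50 from the start on, for 8 of the 9 members. All are written 5′ to 3′ on the gene's strand, with motif matches in capitals. Positions count from the start, so −1 is the base before it.
Atf3 (chr1:191183284-191183583, minus strand): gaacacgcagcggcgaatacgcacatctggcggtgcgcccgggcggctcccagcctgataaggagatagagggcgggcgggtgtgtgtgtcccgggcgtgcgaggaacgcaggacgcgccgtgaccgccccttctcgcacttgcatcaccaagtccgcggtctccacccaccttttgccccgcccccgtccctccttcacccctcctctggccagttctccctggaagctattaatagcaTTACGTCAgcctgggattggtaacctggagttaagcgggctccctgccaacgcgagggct
Sprr1a (chr3:92485832-92486131, minus strand): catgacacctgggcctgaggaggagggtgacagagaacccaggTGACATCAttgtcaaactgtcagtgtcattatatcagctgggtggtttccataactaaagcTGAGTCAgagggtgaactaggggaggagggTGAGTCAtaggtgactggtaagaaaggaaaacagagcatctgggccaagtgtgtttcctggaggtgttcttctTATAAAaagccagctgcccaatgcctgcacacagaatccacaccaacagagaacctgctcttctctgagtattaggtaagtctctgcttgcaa
Ecel1 (chr1:87156307-87156606, minus strand): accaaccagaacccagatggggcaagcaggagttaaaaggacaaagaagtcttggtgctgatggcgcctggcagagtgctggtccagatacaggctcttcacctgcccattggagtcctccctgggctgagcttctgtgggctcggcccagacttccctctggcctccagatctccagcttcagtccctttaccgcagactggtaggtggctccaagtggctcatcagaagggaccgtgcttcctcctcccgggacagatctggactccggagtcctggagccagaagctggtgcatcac
Cckbr (chr7:105425481-105425780, plus strand): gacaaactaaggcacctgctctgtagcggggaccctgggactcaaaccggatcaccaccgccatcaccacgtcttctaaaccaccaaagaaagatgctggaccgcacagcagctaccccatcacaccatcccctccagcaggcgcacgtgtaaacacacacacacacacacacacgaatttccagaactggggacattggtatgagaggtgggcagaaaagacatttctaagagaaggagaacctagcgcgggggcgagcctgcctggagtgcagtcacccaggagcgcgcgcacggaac
Jun (chr4:95052173-95052472, minus strand): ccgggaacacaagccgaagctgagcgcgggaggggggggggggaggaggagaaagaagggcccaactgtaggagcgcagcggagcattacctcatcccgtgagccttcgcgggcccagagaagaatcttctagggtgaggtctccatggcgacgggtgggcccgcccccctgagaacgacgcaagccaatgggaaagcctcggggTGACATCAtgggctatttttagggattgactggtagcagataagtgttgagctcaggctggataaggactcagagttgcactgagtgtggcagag
Sox11 (chr12:27342669-27342968, minus strand): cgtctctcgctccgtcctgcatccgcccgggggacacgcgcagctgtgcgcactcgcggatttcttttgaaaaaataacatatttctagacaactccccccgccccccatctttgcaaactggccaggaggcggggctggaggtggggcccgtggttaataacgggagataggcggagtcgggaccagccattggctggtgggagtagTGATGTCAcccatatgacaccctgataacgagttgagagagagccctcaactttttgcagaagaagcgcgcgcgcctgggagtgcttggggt

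The motifs searched on both strands were the AP-1 site TGANTCA, the CRE TGACGTCA, the Jun-type AP-1 site TGACATCA and the CRE-like TTACGTCA, the last chosen after the Atf3 sequence was seen. TATAAA was searched on the gene's strand. Sprr1a held AP-1 sites at −146 to −140 and at −116 to −110, a Jun-type site at −207 to −200 and TATAAA at −43 to −38. The Jun promoter held the Jun-type site at −45 to −38, and the Sox11 promoter held it on the opposite strand, as TGATGTCA, at −42 to −35. Atf3 held the CRE-like site at −10 to −3. No match was found in the windows of Ecel1, Cckbr, Csf1 and Gadd45a. Over the 32851 promoters in the table, 7.81% held the AP-1 site, 1.79% the CRE, 3.62% the Jun-type site, 0.499% the CRE-like site and 8.32% TATAAA. The members that stood apart in DRG 1 therefore did not share these letters. Sprr1a held AP-1, Jun-type and TATAAA matches, and Ecel1 and Cckbr held none. Atf3 held only the CRE-like site, a match fixed in advance because that motif was chosen from its sequence.

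Across the tissues, Atf3 and Jun were higher in DRG than in spinal cord, while both reached their highest single values in paw. Atf3 stood at 42.6, 13.2 and 18.4 CPM in DRG, at 2.90, 2.29 and 5.57 CPM in spinal cord and at 32.0, 39.3 and 55.1 CPM in paw. Every DRG and paw library lay above every spinal cord library, and DRG 1 lay inside the range of the paw libraries. The DRG mean of 24.7 ± 15.7 CPM (SD, n = 3) exceeded the spinal cord mean of 3.59 ± 1.74 CPM by a log2 fold change of 2.81 ± 0.54 (standard error, edgeR quasi-likelihood test, adjusted p = 0.00260). It was 2.16 ± 0.37 without DRG 1 (edgeR adjusted p = 0.00141). Leaving out spinal cord 3 gave 3.27 ± 0.66 (edgeR adjusted p = 0.00478). The paw mean was 42.1 ± 11.8 CPM, above spinal cord by 3.57 ± 0.55 (edgeR adjusted p = 3.88e-04), or by 4.06 ± 0.67 when spinal cord 3 was left out. Paw and DRG were not separated with all libraries, at 0.77 ± 0.47 (edgeR adjusted p = 0.163), but were without DRG 1, at 1.41 ± 0.35 (edgeR adjusted p = 0.00585), and with limma-voom (adjusted p = 0.0364). In bulk tissue, fewer cells of a type and less RNA per cell cannot be told apart, which holds for each of these differences.

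Jun, the AP-1 subunit needed for efficient regrowth of injured axons, stood at 118, 99.8 and 111 CPM in DRG, at 49.7, 47.4 and 57.5 CPM in spinal cord and at 95.4, 123 and 159 CPM in paw. The spinal cord libraries were the low ones, and DRG and paw overlapped. DRG exceeded spinal cord by 1.09 ± 0.16 on the log2 scale (edgeR adjusted p = 1.56e-04) and paw exceeded spinal cord by 1.29 ± 0.16. Paw against DRG gave 0.20 ± 0.16 (edgeR adjusted p = 0.274). That value was −0.01 without paw 3 and 0.35 without paw 1, the latter with an edgeR adjusted p of 0.0432.

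Sox11, a SoxC factor of axon growth, was low in all tissues and lowest in paw. Its values were 13.9, 10.1 and 11.1 CPM in DRG, 0.658, 1.36 and 0.883 CPM in paw, and 8.85, 8.58 and 8.32 CPM in spinal cord. The groups did not overlap. DRG against spinal cord missed the threshold at 0.45 ± 0.18 (edgeR adjusted p = 0.0541), passed it with limma-voom (adjusted p = 0.0294) and gave 0.31 without DRG 1 (edgeR adjusted p = 0.224). It also passed without DRG 2, paw 1 or paw 2, with edgeR adjusted p of 0.0341, 0.0364 and 0.0326. Paw was below DRG by a log2 fold change of −3.60 ± 0.23 (edgeR adjusted p = 4.42e-08). Of the other SoxC genes, Sox12 stood at 33.4 ± 2.57 CPM in DRG, 9.54 ± 0.184 CPM in paw and 30.2 ± 2.31 CPM in spinal cord (SD, n = 3). Sox4 stood at 10.6 ± 0.243, 6.78 ± 2.02 and 7.19 ± 0.284 CPM, and DRG exceeded spinal cord by 0.64 ± 0.19.

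**Figure D4:**
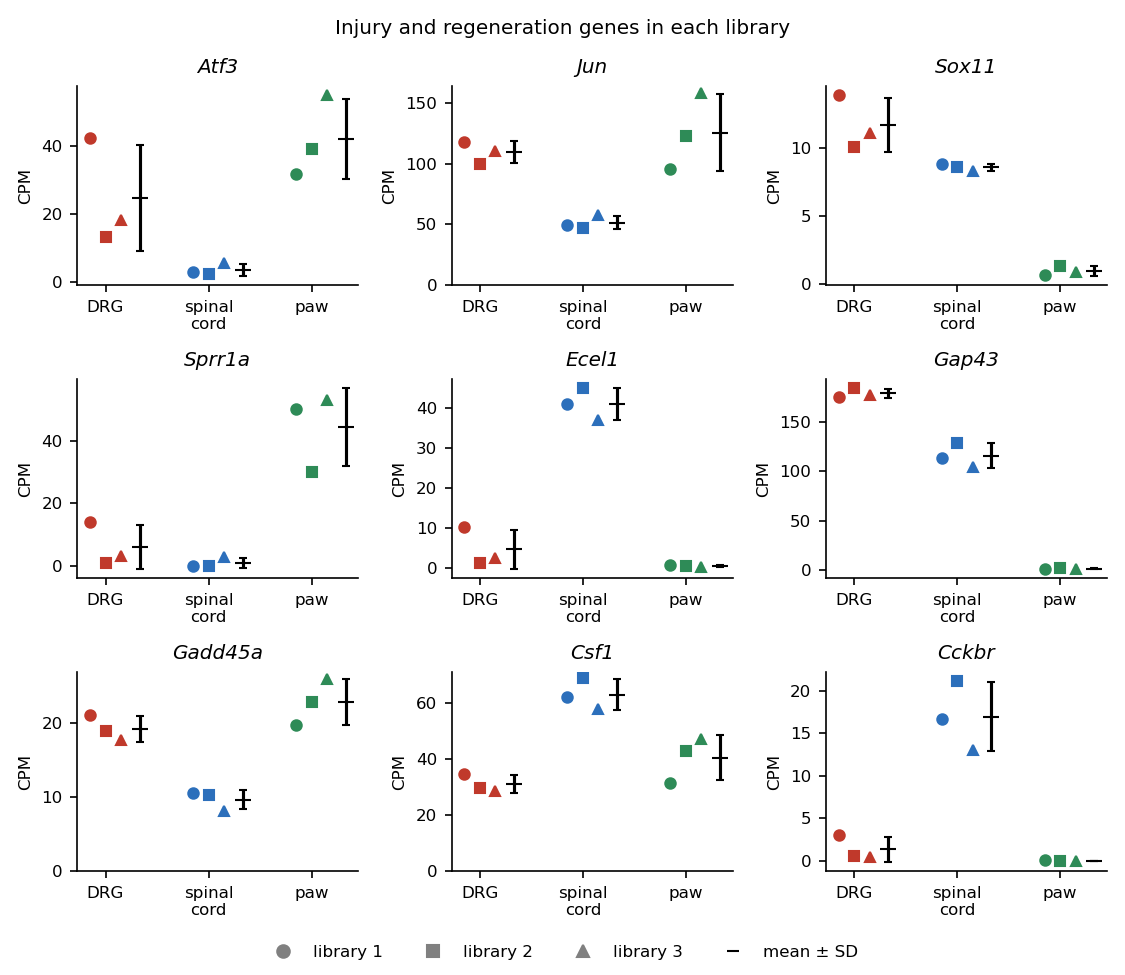
Each panel shows 1 injury gene, with CPM on the y axis from 0 and the 3 libraries of each tissue as points, beside a bar for the mean ± SD (n = 3). DRG library 1 (red circle) is the high DRG point for Atf3, Sprr1a, Ecel1 and Cckbr, spinal cord 3 (blue triangle) is the high spinal cord point for Sprr1a, and Gap43 and Sox11 are near 0 in paw.

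Sprr1a was highest in paw. It stood at 50.1, 30.1 and 52.9 CPM in paw and at 14.0, 0.965 and 3.07 CPM in DRG. In spinal cord it had 1, 1 and 49 reads. Every paw library lay above every other library, and spinal cord 3 overlapped the range of DRG. The paw mean of 44.4 ± 12.4 CPM (SD, n = 3) exceeded the DRG mean of 6.01 ± 6.99 CPM by 2.87 ± 0.99 on the log2 scale (edgeR adjusted p = 0.0286). Without DRG 1 this was 4.46 ± 1.05 (edgeR adjusted p = 0.00750). The call was lost without DRG 3, paw 1 or paw 3, at edgeR adjusted p of 0.0727, 0.0655 and 0.0781, and with DESeq2 (adjusted p = 0.0723). DRG against spinal cord did not pass, at 2.76 ± 1.31 (edgeR adjusted p = 0.109), and this comparison turned on which libraries entered it. It gave 1.17 without DRG 1 (edgeR adjusted p = 0.478), 3.27 without DRG 2 (adjusted p = 0.0495) and 6.81 when spinal cord 3 was left out (adjusted p = 0.0415). The last fold stands against 2 reads in all, and as a ratio of pooled reads DRG was 129 times spinal cord 1 and 2, with a 95% counting interval of 35.5 to 1071. Without both DRG 1 and spinal cord 3 the fitted value was 5.21 (edgeR adjusted p = 0.00812). Paw exceeded spinal cord by 5.63 ± 1.25 (edgeR adjusted p = 0.00378). Without spinal cord 3 this was 9.70 ± 1.89 (edgeR adjusted p = 0.00348). The pooled level in paw was 923 times that of spinal cord 1 and 2, with an interval of 255 to 7626.

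The Sprr gene family gave the skin context for Sprr1a. All 6 other Sprr genes that could be tested were higher in paw than in DRG, as were 39.7% of all genes tested. Sprr1b stood at 564, 456 and 541 CPM in paw and at no more than 0.350 CPM in any other library. Reads that match several Sprr genes were not assigned, so levels within this family, Sprr1a included, are uncertain.

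Ecel1 was foremost a spinal cord gene. It stood at 41.0, 45.0 and 37.1 CPM in spinal cord, at 10.2, 1.11 and 2.38 CPM in DRG and at 0.539, 0.309 and 0.177 CPM in paw. The 3 tissues did not overlap. DRG was below spinal cord by a log2 fold change of −3.15 ± 0.65 (edgeR adjusted p = 0.00379), and without DRG 1 by −4.55 ± 0.30 (adjusted p = 9.11e-07). Paw was below DRG by −3.73 ± 1.05 (edgeR adjusted p = 0.0114), and without DRG 1 by −2.33 ± 0.44 (adjusted p = 6.63e-04). Leaving out DRG 1 thus moved both folds by more than 1 log2 unit while both calls held. Of 5 tested relatives in the neprilysin family, 3 were higher in DRG than in spinal cord and 1 was lower, against 29% and 30.6% of all genes tested. Mme, neprilysin itself, stood at 47.1, 29.2 and 35.8 CPM in DRG and exceeded spinal cord there by 1.50 ± 0.23, and Ece1, an endothelin-converting enzyme, did so by 0.63 ± 0.09. Mmel1 was the lower one, at 0.0491 ± 0.0495 CPM against 4.05 ± 0.878 in spinal cord (SD, n = 3).

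Gap43, a membrane protein of growth cones that intact sensory neurons also make, had the least spread of the members within DRG relative to its mean. It stood at 176, 184 and 177 CPM in DRG, at 114, 129 and 104 CPM in spinal cord and at 1.20, 1.67 and 1.35 CPM in paw. DRG 1 was the lowest of the DRG libraries, and the tissues did not overlap. DRG exceeded spinal cord by 0.63 ± 0.10 (edgeR adjusted p = 2.22e-04), and paw was below DRG by −6.99 ± 0.15. Among 5 other growth cone proteins, 1 was higher and 2 were lower in DRG than in spinal cord, and all 5 were lower in paw than in DRG. Over all genes tested, 29% were higher and 30.6% lower in DRG than in spinal cord, and 40.8% were lower in paw than in DRG. Stmn2, a tubulin-binding stathmin of growing axons, stood at 1695 ± 174 CPM in DRG, at 12.7 ± 0.333 CPM in paw and at 479 ± 57.6 CPM in spinal cord (SD, n = 3). Nrgn, a calmodulin-binding protein of dendrites, was lower in DRG than in spinal cord by −3.90 ± 0.26.

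Gadd45a, a stress protein with roles in DNA repair and demethylation, stood at 21.1, 18.9 and 17.7 CPM in DRG, at 10.5, 10.3 and 8.15 CPM in spinal cord and at 19.8, 22.9 and 26.0 CPM in paw. Spinal cord was the low tissue, and DRG and paw overlapped. DRG exceeded spinal cord by 0.99 ± 0.14 (edgeR adjusted p = 9.90e-05) and paw exceeded spinal cord by 1.24 ± 0.14. Paw against DRG gave 0.25 ± 0.14 (edgeR adjusted p = 0.111), which passed the threshold with upper quartile scaling (adjusted p = 0.0301), without paw 1 (adjusted p = 0.0469) and without both DRG 1 and spinal cord 3 (adjusted p = 0.0465). Upper quartile scaling moved the median of all genes by 0.12 in this comparison. Its family members had another order of tissues: Gadd45b and Gadd45g were both lower in DRG than in spinal cord, by −0.56 ± 0.19 and −0.89 ± 0.14, and both were higher in paw than in DRG. Without DRG 1 the difference of Gadd45b between DRG and spinal cord missed the threshold (edgeR adjusted p = 0.0703).

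Csf1, the growth factor through which injured sensory neurons act on microglia and macrophages, was highest in spinal cord. It stood at 34.8, 29.7 and 28.6 CPM in DRG, at 62.2, 69.0 and 57.9 CPM in spinal cord and at 31.4, 42.8 and 47.1 CPM in paw. Spinal cord overlapped with neither other tissue, and DRG and paw overlapped. DRG was below spinal cord by −1.02 ± 0.15 (edgeR adjusted p = 9.73e-05), and paw was below spinal cord by −0.64 ± 0.15 (adjusted p = 0.00153). Paw exceeded DRG by 0.38 ± 0.15 (edgeR adjusted p = 0.0308), a call lost without DRG 2, DRG 3, paw 2 or paw 3, at adjusted p of 0.0680, 0.105, 0.0796 and 0.139. Its receptor Csf1r, found on macrophages and microglia, stood at 43.5, 29.7 and 31.2 CPM in DRG, at 93.7, 102 and 92.3 CPM in paw and at 113, 108 and 112 CPM in spinal cord. Il34, the other ligand of Csf1r, stood at 62.1, 57.3 and 52.9 CPM in DRG and was higher there than in spinal cord by 0.83 ± 0.16. Csf1, Csf1r and Il34 were all highest in DRG 1 within DRG, each by less than the step of 1 log2 unit.

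Cckbr was also a spinal cord gene, with 1014 reads over the 3 spinal cord libraries, 90 over DRG and 1 over paw. It stood at 16.7, 21.1 and 13.0 CPM in spinal cord, at 3.08, 0.531 and 0.495 CPM in DRG and at 0.0599, 0 and 0 CPM in paw. The tissues did not overlap. DRG was below spinal cord by −3.60 ± 0.56 (edgeR adjusted p = 4.86e-04), and without DRG 1 by −5.03 ± 0.34 (adjusted p = 9.54e-07). The ratio of DRG to paw was 70.9, with a 95% counting interval of 12.4 to 2833, and that of spinal cord to paw was 860, with an interval of 154 to 33986. DRG 1 supplied 69 of the 90 DRG reads, and the ratio of DRG 2 and 3 to paw was 25.6, with an interval of 4.12 to 1059. Both differences from paw passed the edgeR test. The fitted log2 fold change of Cckbr in paw against DRG was −5.72 ± 1.45 (adjusted p = 0.00518), and it was −4.29 ± 0.82 without DRG 1 and −7.77 ± 2.57 without paw 1, which holds the single paw read. The other receptor for cholecystokinin, Cckar, had the opposite distribution, at 26.2, 33.6 and 30.2 CPM in DRG against 1.96 ± 0.393 CPM for spinal cord (SD, n = 3), and DRG 1 was its lowest DRG library. The peptide gene Cck stood at 20.3 ± 3.53 CPM in spinal cord, at 5.25 ± 1.31 CPM in paw and at 0.222 ± 0.0592 CPM in DRG (SD, n = 3).

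Counted together, 7 of 9 members passed the threshold between DRG and spinal cord, 4 higher in DRG and 3 lower. The share over all genes tested was 59.6%, with 29% higher and 30.6% lower. Between paw and DRG 6 members passed, 2 higher and 4 lower in paw, against 80.5% of all genes, of which 39.7% higher and 40.8% lower. Between paw and spinal cord all 9 passed, 4 higher and 5 lower in paw, against 81.6% of all genes, of which 39.9% higher and 41.7% lower. Without DRG 1 the members counted 7, 7 and 9, against 53.4%, 77.4% and 80.9% of all genes. Without spinal cord 3 the members counted 8, 6 and 9, where 9646, 13273 and 13201 of all genes were called. The members' median log2 fold changes were 0.63, 0.20 and −0.64 in these comparisons, against −0.02, −0.02 and −0.03 over all genes. The comparisons share libraries, so they are not independent of each other.

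**Figure D5:**
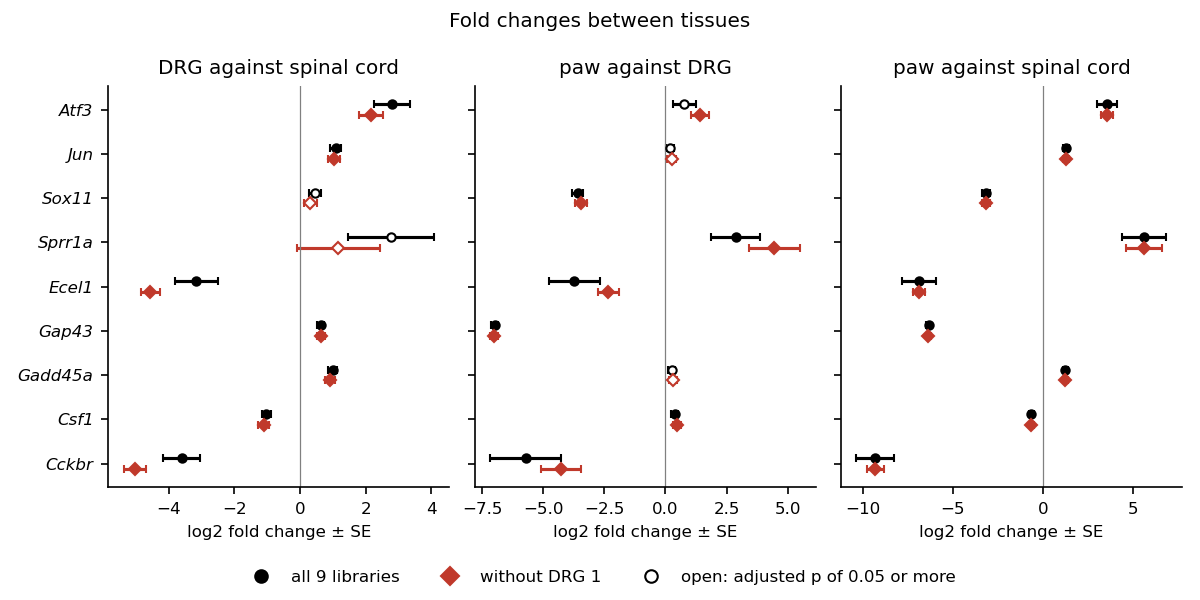
Each row is 1 injury gene, with the log2 fold change ± standard error (edgeR) on the x axis, from all 9 libraries (black circles) and without DRG 1 (red diamonds). Open symbols have an adjusted p of 0.05 or more. Ecel1 moves from −3.15 to −4.55 and Cckbr from −3.60 to −5.03 between DRG and spinal cord without DRG 1, and Gap43, Jun, Csf1 and Gadd45a move little.

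The wider injury lists, also chosen with earlier results known, were counted in the same comparisons. Over all genes tested, 29% were higher in DRG than in spinal cord and 30.6% lower. Among 14 transcription factors 8 were higher in DRG than in spinal cord and 1 was lower, with a median of 0.49. Klf7 had the largest difference of the list, 4.10 ± 0.75, which was 4.90 ± 0.91 without spinal cord 3, and Stat3 stood at 498 ± 26.9 CPM in DRG against 120 ± 13.7 in spinal cord (SD, n = 3). Nfil3, a leucine zipper repressor, was the lower one, at −0.66 ± 0.18. Among 27 effectors 16 were higher in DRG and 6 lower, with a median of 1.49. The heat shock protein gene Hspb1 was higher by 2.61 ± 0.15, and the neuropeptide gene Npy was lower by −4.11 ± 0.28. Without DRG 1 the effectors counted 16 higher and 7 lower.

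Of the 14 transcription factors 9 were higher in paw than in DRG and 5 lower, where 39.7% of all genes were higher and 40.8% lower. Hif1a, the oxygen-sensing factor, stood at 371 ± 69.2 CPM in paw and 91.7 ± 5.68 in DRG (SD, n = 3). Of 10 AP-1 partners 7 were higher in paw and 2 lower, with a median of 1.76. Fosl2, a Fos-related partner of Jun, stood at 271 ± 60.3 CPM in paw against 27.7 ± 4.19 in DRG, and Fos was higher in paw by 3.57 ± 0.20. Of 14 immediate early genes 11 were higher in paw, among them the phosphatase gene Dusp1, at 245 ± 29.2 CPM against 24.3 ± 1.16. All 10 genes of the DLK and JNK kinase pathway were lower in paw than in DRG. Mapk8ip3, a JNK scaffold of axonal transport, was the most abundant of them in DRG, at 750, 842 and 773 CPM, and stood at 74.0, 77.8 and 73.9 CPM in paw.

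The genes whose pattern over the 9 libraries was most like that of a member were taken by Pearson's r of log2 CPM over 11633 or 11634 genes. For Atf3 they were Calu (r = 0.990), Slc16a9 (0.989) and Itpripl2 (0.989). Itpripl2 stood at 66.0, 34.1 and 54.6 CPM in DRG, so DRG 1 was the highest but not by the step of 1 log2 unit. For Sprr1a they were Dusp18 (r = 0.991), Ldlrad3 (0.987) and Gm12824 (0.985). Dusp18 stood at 29.0, 18.8 and 23.6 CPM in DRG, and at 13.7, 13.0 and 21.2 CPM over the spinal cord libraries, so it was highest in DRG 1 and in spinal cord 3, as Sprr1a was. For Ecel1 they were D3Bwg0562e (r = 0.983), Ppp1r16b (0.980) and Olfml1 (0.978), and for Csf1 they were Car14 (0.981), D0H4S114 (0.977) and Endog (0.976). These values describe 9 libraries in 3 tissue clusters, share the scaling of each library and carry no test.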

How the data were processed

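The authors deposited whole-number read counts per gene symbol for 9 libraries, 3 each of DRG, spinal cord and paw. Per the labels' protocols, about 500 ng of RNA was selected with oligo-dT, made into stranded libraries by the dUTP method and read as 50 bp single ends. Per the submitters' processing notes, bcl2fastq, TopHat2, HTSeq and the mm9 genome were used. Versions, gene models and the strand setting were not given in the sources used here, so genes that overlap another gene, on either strand, are uncertain. Summary rows held 42.9 to 59.3% of each file's total, mostly alignments to several places, and stayed out of library sizes and tests.

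From the deposited counts, edgeR 4.0.16 (R 4.3.3) was run on all 9 libraries with tissue as the factor: filterByExpr by tissue, TMM scaling, robust glmQLFit and glmQLFTest, with Benjamini-Hochberg adjustment over 16091 genes and a threshold of 0.05. The standard error is the log2 fold change divided by the square root of F. CPM values use TMM library sizes. Ratios against fewer than 4 reads carry exact binomial 95% counting intervals, which cover counting error only. Groups came from the sample titles. No 2 libraries matched within counting noise: chi-square over degrees of freedom was 7.55 to 38.4 within tissues.

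The members and 28 other lists (233 of 235 entries matched) were chosen with earlier results of these data known. Besides the members, the rule for named genes takes, of each other list, the most expressed gene in each tissue, the called gene with the largest change each way between DRG and spinal cord, and the gene that deviates most in DRG 1 at 5 CPM or more. It also takes the 10 genes of at least 10 CPM with the largest excess in DRG 1 and the 3 genes most like Atf3, Sprr1a, Ecel1 and Csf1. Not every gene it takes is printed. Some further genes are named with that said, and others as relatives or markers. limma-voom (limma 3.58.1), DESeq2 1.42.0, other scalings, no filter, a replicate block and leaving out each library were the alternatives. The fitting code was tested on simulated data. Promoters are RefSeq's on GRCm38.p6, matched by symbol, and no coordinates were taken from the counts' build.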

Additional observations from a re-analysis of the deposited data

How the results depend on the processing

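Of 432 alternative fold changes of the members, 408 kept their direction and side of the threshold, 9 lost a call, 14 gained one and 1 reversed: Jun in paw against DRG, uncalled, ran from −0.0054 to 0.351 over the fits that left out 1 library. Members called between DRG and spinal cord ran from 7 to 9 over those fits, and between paw and DRG from 4 to 7. All 9 members stayed called between paw and spinal cord under every alternative run. The count of members that stood apart in DRG 1 was 4 under upper quartile scaling, a prior count of 0.5 and no filter. Same-numbered libraries of different tissues did not all deviate together (r from −0.130 to 0.271). Such deviations may be technical, so whether the numbers mark the same mouse cannot be told from them. The replicate block called 7, 5 and 9 members and 9500, 12906 and 13074 genes in the comparisons as ordered in the report, against 9584, 12946 and 13127 without it, and Csf1 in paw against DRG then had an edgeR adjusted p of 0.0510. DESeq2 called 9715, 13184 and 13462 genes. Leaving out DRG 1 and spinal cord 3 together was chosen after seeing the data. Levels under 3 reads, such as Cckbr in paw, limit what depth can show.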
